A study of Mus musculus with 9 samples.

Results

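The ion channels of the muscle fiber membrane, the sarcolemma, were followed through 7 genes: the sodium channel genes Scn4a and Scn7a, the chloride channel gene Clcn1, and the potassium channel genes Kcnj2, Kcnj11, Kcnn3 and Kcna7. They were taken by symbol, and each of the 7 matched 1 Ensembl identifier in every library, among 38293 genes listed for muscle tissue and 46078 listed for cultured cells. Scn7a was chosen by its measured rise in MT against MB in these same data, so its difference between those groups is a description and carries no test here. All 9 samples were from mice labelled C57BL/6, and the study's methods give the mice as C57Bl6/J. MB were primary myoblasts, the muscle precursor cells, kept in growth medium with PBS as the vehicle (n = 2). MT were myotubes, obtained by moving such MB to a low-serum differentiation medium for 3 days (n = 2). Lactate-treated MB received 10 mM sodium-L-lactate in place of PBS alone (n = 2). GAS was whole gastrocnemius, a fast hindlimb muscle, from female mice aged 8 to 12 weeks (n = 3). No transgene or deletion was part of any group. MT have no nerve and no blood supply, and GAS includes every cell type of the muscle.

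Each member sits at a known step of muscle excitability. Nav1.4, the protein of Scn4a, carries the inward sodium current of the fiber's action potential, and ClC-1, the protein of Clcn1, provides the large resting chloride conductance that stops the fiber from firing repeatedly. Kir2.1 (Kcnj2) is an inward rectifier that holds the resting potential, Kir6.2 (Kcnj11) forms the pore of the ATP-sensitive potassium channel together with a sulfonylurea receptor, and Kv1.7 (Kcna7) is a voltage-gated potassium channel of striated muscle. SK3 (Kcnn3) is a small-conductance calcium-activated channel known from immature and denervated muscle, and Nax (Scn7a) is an atypical member of the sodium channel family that responds to extracellular sodium and not to voltage in the usual way.

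Total counts were 19307793 to 19941574 in GAS, 7856301 and 10839516 in MT, 7770793 and 8974146 in MB and 5198247 and 7415628 in lactate-treated MB. GAS libraries were made by an outside provider from mRNA, and those of cultured cells by Smart-seq2, so levels in GAS and in cultured cells were set side by side without a test. Levels are CPM, counts divided by library size after scaling by the trimmed mean of M values (TMM), within GAS and within the 6 cultured libraries separately. A count of 3 corresponded to 0.152 to 0.156 CPM in GAS and to 0.223 to 0.533 CPM in cultured cells, and this floor was the least level that could be told from no expression, counting error alone considered. MT 1 stood apart from the other cultured libraries: 28599 genes had a count there, against 17965 in MT 2 and 15548 to 17315 in MB with or without lactate, and 8918 genes were counted in MT 1 alone. A ribosomal RNA gene took 9.20% of counts in MB 1 and 13.8% in lactate-treated MB 1, against at most 0.575% in the other cultured libraries. The labels fitted their markers: 5 of 5 markers of differentiated muscle (Myog, Mymk, Myh3, Ckm, Acta1) were called higher in MT than in MB, and 1 of 3 myoblast markers, Pax7, was called lower. Of 3 adult fiber markers, Myh1 and Myh4 were called higher in MT, but their sum with Pvalb was 499 to 895 CPM there against 73872 to 82713 CPM in GAS.

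Across these groups the members fell into 2 patterns. Scn4a, Clcn1, Kcnj2, Kcnj11 and Kcna7 were at 46.3 to 509 CPM in GAS, at 0.745 to 11.0 CPM on average in MT and at or near 0 in MB. Scn7a and Kcnn3 had the opposite order of tissue and culture, with 141 and 15.5 CPM in MT and 6.07 and 0.292 CPM in GAS. In MB, 5 of the 7 genes had no count in either library, and the other two, Clcn1 and Kcnn3, had 5 and 3 counts over both. Because these are bulk libraries, fewer cells of a type and less RNA per cell cannot be told apart.

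**Figure D1:**
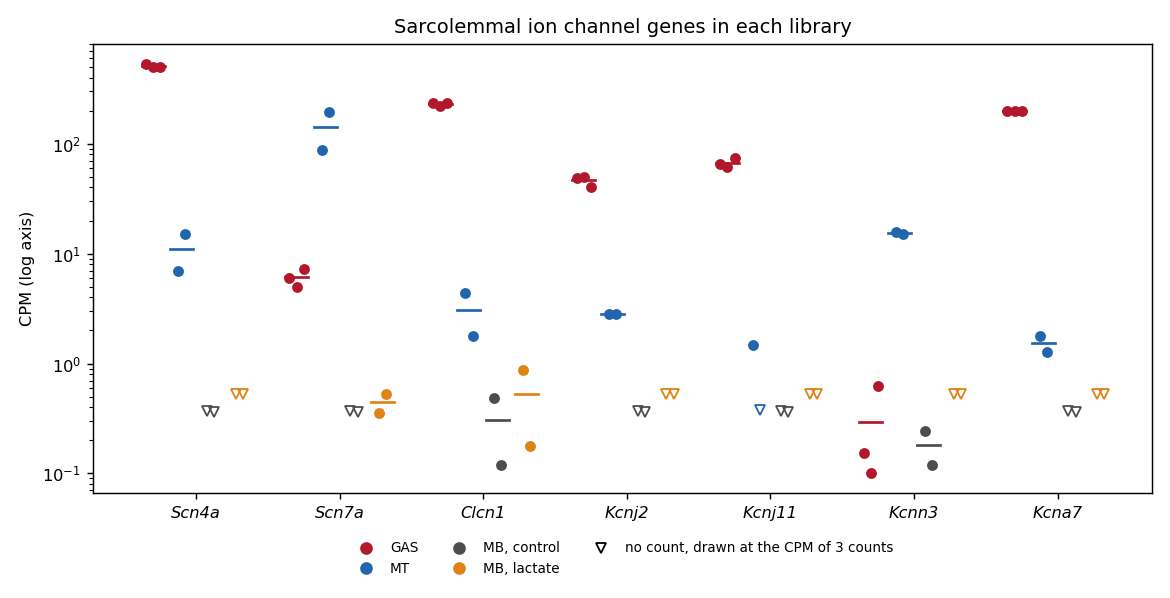
Level of each of the 7 genes in every library, in CPM on a logarithmic axis, with points coloured by group and bars at the group mean where every library had a count; open triangles mark libraries without a count, drawn at the CPM of 3 counts. The 3 GAS points lie above both MT points for 5 genes and below them for Scn7a and Kcnn3. GAS and MT differ in library protocol, and the share of all genes that lie apart in this way is not given here. MB points lie at or near the floor for all 7.

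Scn4a (ENSMUSG00000001027, chr11:106318592-106353288, minus strand, GRCm38) rose in MT and was far higher in GAS. It had 93 counts in MT 1 and 119 in MT 2, or 6.92 and 15.1 CPM, and no count in MB 1 or MB 2. The MT libraries were both above the MB floor, and the mean of 11.0 ± 5.81 CPM (SD, n = 2) was at least 30.0-fold higher than the MB floor of 0.368 CPM (edgeR quasi-likelihood test, adjusted p = 0.00220). In GAS it reached 527, 499 and 500.3 CPM, a mean of 509 ± 15.7 CPM (SD, n = 3). The lowest GAS library was thus far above the higher MT library.

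Scn7a (ENSMUSG00000034810, chr2:66673425-66784914, minus strand) was high in MT and low in tissue. It had 1171 counts in MT 1 and 1526 in MT 2, or 87.2 and 194 CPM, and no count in either MB library. The mean of 141 ± 75.6 CPM (SD, n = 2) was at least 383-fold higher than the MB floor, which describes the contrast that it was selected on. In GAS, which had no part in that selection, it was at 6.04, 4.96 and 7.21 CPM, a mean of 6.07 ± 1.13 CPM (SD, n = 3). All 3 tissue libraries lay below both MT libraries, although the tissue libraries were deeper. The MT side of this contrast is the level that Scn7a was selected on, so the contrast is a description too.

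Because Scn7a is also known outside the muscle fiber, in glia among other cells, markers of other cell types were read beside it. The summed level of 5 Schwann cell markers was 1.14 to 7.00 CPM in MT, 0.98 to 2.89 CPM in MB and 20.4 to 38.0 CPM in GAS, and the 1 marker tested, Mbp, was not called. In MT 2, the library with more Scn7a, the defining marker Sox10 was at 0. The 4 fibroblast markers summed to 1875 CPM in MT 2 and 13536 CPM in MT 1, against 2.17 to 2.57 CPM in MB. In GAS they summed to 330 to 427 CPM. Nearly all of the MT sum was Col1a1, at 1762 CPM in MT 2 and 13116 CPM in MT 1. The others were not higher in MT than in GAS on average: Dcn 259 against 266, Pdgfra 4.10 against 23.3 and Lum 3.40 against 18.7 CPM. Against MB, 2 of the 3 tested, Col1a1 and Dcn, were called higher in MT. Scn7a and the fibroblast sum were thus both high in MT and near 0 in MB, while within MT the library with the larger fibroblast sum had the lower Scn7a. Markers of smooth muscle and pericytes summed to 122 to 211 CPM in MT, nearly all from Pdgfrb (1 of 2 tested called higher), against 8.80 to 13.6 CPM in MB. Endothelial markers reached at most 11.3 CPM, macrophage markers 16.8 CPM and adipocyte markers 0.596 CPM, each in MT 1. No endothelial or adipocyte marker was tested, and the 1 macrophage marker tested, Csf1r, had an adjusted p of 0.0506 (edgeR quasi-likelihood test). Of the 3 neuron markers, 1 of 1 tested, Nefl, was called lower in MT, and Rbfox3 and Snap25 were at 0 in MT 2. The part of other cell types in the level of Scn7a was not tested.

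Clcn1 (ENSMUSG00000029862, chr6:42286685-42315756, plus strand), the chloride channel gene, was abundant in tissue and scarce in culture. Its counts were 59 in MT 1 and 14 in MT 2 against 4 in MB 1 and 1 in MB 2, which gave 4.39 and 1.78 CPM in MT and 0.490 and 0.121 CPM in MB. The MT values lay above the MB values without overlap, with a log2FC of 2.70 (SE 0.89), but the call was missed (adjusted p = 0.0594, edgeR quasi-likelihood test). The ratio of MT to MB counts, scaled to depth, was 11.3 with a 95% counting interval of 4.62 to 35.8, which leaves out the spread between replicates. In GAS, Clcn1 was at 234, 218 and 236 CPM, a mean of 229 ± 9.60 CPM (SD, n = 3). The last 445 bases of the gene's span are shared with Fam131b on the opposite strand, and whether the counting used strand is not given in the sources used here. Fam131b itself had 34 and 5 counts in MT and 41 and 20 in MB, and the part of its reads in the counts of Clcn1 was not tested.

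Kcnj2 (ENSMUSG00000041695, chr11:111066164-111076821, plus strand), the inward rectifier, rose from no count in MB to 38 counts in MT 1 and 22 in MT 2. Both MT libraries were at nearly the same level, 2.83 and 2.80 CPM, and their mean was at least 7.65-fold higher than the MB floor (adjusted p = 0.00970, edgeR quasi-likelihood test). Tissue levels were 49.2, 49.7 and 40.0 CPM, a mean of 46.3 ± 5.46 CPM (SD, n = 3). The ranges in GAS and MT did not overlap.

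Kcnj11 (ENSMUSG00000096146, chr7:46093953-46100764, minus strand), the pore of the ATP-sensitive channel, was seen in tissue and in 1 MT library. Its 20 counts in MT 1 (1.49 CPM) stood against none in MT 2, whose floor was 0.382 CPM, and none in any MB library. The low-count filter removed it, and it was not tested. MT 1 was the library with 8918 genes to itself among the cultured ones, of which 3854 were protein-coding with a median of 3.23 counts per kb of exon, and Kcnj11 had 5.44 counts per kb there. A level of Kcnj11 in MT was therefore carried by 1 library. In GAS it was at 64.8, 61.6 and 74.2 CPM, a mean of 66.9 ± 6.53 CPM (SD, n = 3).

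Kcnn3 (ENSMUSG00000000794, chr3:89520164-89675132, plus strand), the calcium-activated channel, rose in MT and was nearly missing in tissue. It had 213 and 119 counts in MT against 2 and 1 in MB, or 15.9 and 15.1 CPM against 0.245 and 0.121 CPM. The ratio of MT to MB was 85.5, with a 95% counting interval of 29.0 to 417, and the change passed the test (adjusted p = 0.00107, edgeR quasi-likelihood test). The MT libraries were close to each other, at 15.5 ± 0.513 CPM (SD, n = 2). In GAS its 3, 2 and 12 counts gave 0.152, 0.101 and 0.623 CPM, so only GAS 3 lay above the floor of 3 counts. Deeper libraries of tissue thus held fewer Kcnn3 counts than those of MT.

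Kcna7 (ENSMUSG00000038201, chr7:45405653-45409763, plus strand), the voltage-gated potassium channel, was high in tissue and low in MT. Its CPM in GAS were 198, 197 and 198, a mean of 198 ± 0.236 (SD, n = 3). Without TMM they were 195, 202 and 196, so the small SD holds only under that scaling. In MT it had 24 and 10 counts, or 1.79 and 1.27 CPM, and in MB none. The MT mean was at least 4.16-fold higher than the MB floor (adjusted p = 0.0198, edgeR quasi-likelihood test).

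Over all 12921 genes tested between MT and MB, 11.0% were called higher in MT and 6.86% lower, a call being an adjusted p below 0.05 with a log2FC beyond 0.5 in either direction. Of the 6 members other than Scn7a, 5 passed the filter on low counts and 4 of these were called higher: Scn4a, Kcnn3, Kcnj2 and Kcna7. With MB at or near 0, a member could pass that filter only through MT, so the count of 4 describes these genes and supports nothing further. Scn4a and Kcnn3 were called under every fit that tested them, while Kcnj2 and Kcna7 were not called without the filter (adjusted p = 0.212 and 0.487), nor when MB 1 (0.365 and 0.689) or MB 2 (0.311 and 0.617) was left out, all from edgeR's quasi-likelihood test. Kcna7 also missed the call without MT 2 (adjusted p = 0.0578) and was not tested without MT 1 or in the fit of all 6 cultured libraries. Clcn1 was called with a likelihood ratio test (adjusted p = 0.0130) and without MT 2 (adjusted p = 0.0410), and its adjusted p was 0.451 without MT 1.

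**Figure D2:**
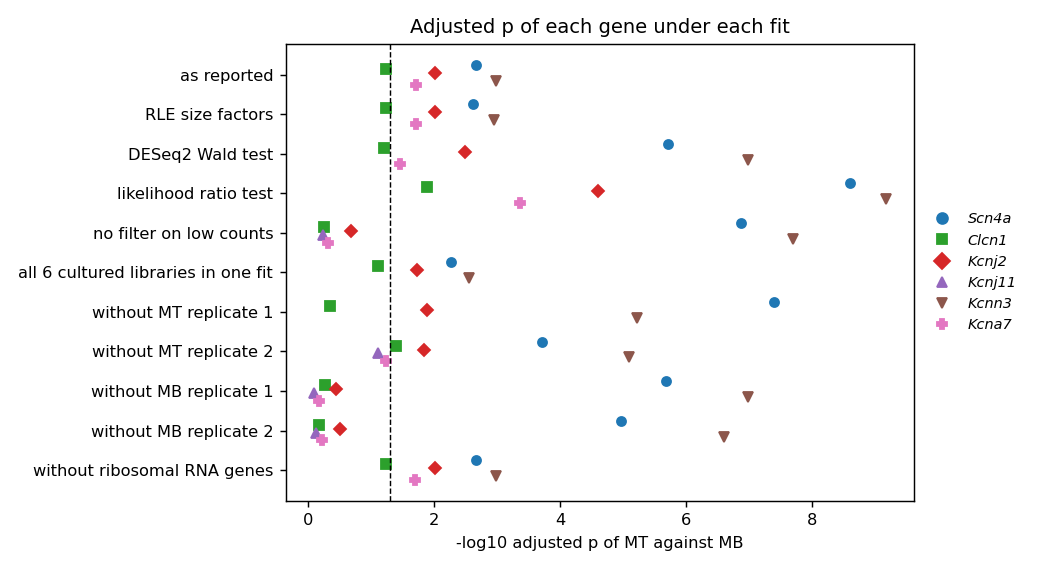
Adjusted p of MT against MB for each member other than Scn7a, as -log10 on the horizontal axis, in the reported fit and in 10 alternatives without a block; the dashed line marks an adjusted p of 0.05. Scn4a and Kcnn3 stay to the right of the line in each fit shown, Kcnj2 and Kcna7 cross to its left in 3 and 4 fits, and a gene has no point where it was not tested.

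The question of whether lactate alone changed these genes was put to lactate-treated against control MB, a comparison that uses the same MB libraries as the one above. Of 11804 genes tested there, 0% were called by edgeR's quasi-likelihood test, with 5 genes at an unadjusted p below 0.05. DESeq2 also called 0 genes, with 3 below 0.05. Neither fit had a block, although same-numbered libraries of these groups deviated alike from their group means (correlation 0.705). With the replicate number as a block, edgeR's quasi-likelihood test also called 0 genes, with 166 below 0.05. In each of these fits, fewer genes lay below 0.05 than evenly spread p-values would give. The tests were thus strict, and 0 calls do not show that lactate had no effect. No member passed the filter on low counts. Scn4a, Kcnj2, Kcnj11 and Kcna7 had no count in any of the 4 libraries, so a difference was not detectable at this depth, a count of 3 being worth 0.362 to 0.533 CPM. Scn7a had 2 and 3 counts in the lactate-treated libraries (0.351 and 0.533 CPM) and none in the controls, and none of these levels was above its library's floor. Kcnn3 had none with lactate and 2 and 1 counts without. Clcn1 had 5 and 1 counts with lactate (0.878 and 0.178 CPM) and 4 and 1 without, so its groups overlapped. Without the filter, the adjusted p was 0.999917 for each of Scn7a, Clcn1 and Kcnn3 (edgeR quasi-likelihood test).

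Levels of different genes were compared per length, as CPM divided by kb of exon (RPKM). In GAS the order was Kcna7 at 90.6 ± 0.108, Scn4a at 72.2 ± 2.22, Clcn1 at 42.2 ± 1.77, Kcnj11 at 18.2 ± 1.78, Kcnj2 at 8.51 ± 1.00, Scn7a at 0.828 ± 0.154 and Kcnn3 at 0.0280 ± 0.0275 RPKM (SD, n = 3). No 2 neighbours in that order overlapped in their ranges over the 3 libraries. Kcna7, Scn4a and Clcn1 together made up most of the channel transcripts measured here, with mean shares of 39.0%, 31.1% and 18.2% of a summed 228 to 236 RPKM, and Scn7a and Kcnn3 had 0.355% and 0.0120%.

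In MT the order began with Scn7a at 19.2 ± 10.3 RPKM (SD, n = 2), which alone held 70.2% and 84.0% of the summed RPKM of the 7 genes in the pair of libraries, a share that rests on the level it was selected on. The others followed at 1.57 ± 0.824 for Scn4a, 1.48 ± 0.0491 for Kcnn3, 0.701 ± 0.167 for Kcna7, 0.569 ± 0.340 for Clcn1, 0.517 ± 0.00409 for Kcnj2 and 0.202 ± 0.286 RPKM for Kcnj11. Scn4a and Kcnn3 did not differ beyond their ranges, nor did Kcna7 and Clcn1, nor Clcn1 and Kcnj2. With the longest transcript in place of all exons as the length, Kcnn3 stood before Scn4a and Clcn1 before Kcna7 in MT, and the order in GAS was the same. The summed RPKM was 16.9 and 31.5 in MT.

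**Figure D3:**
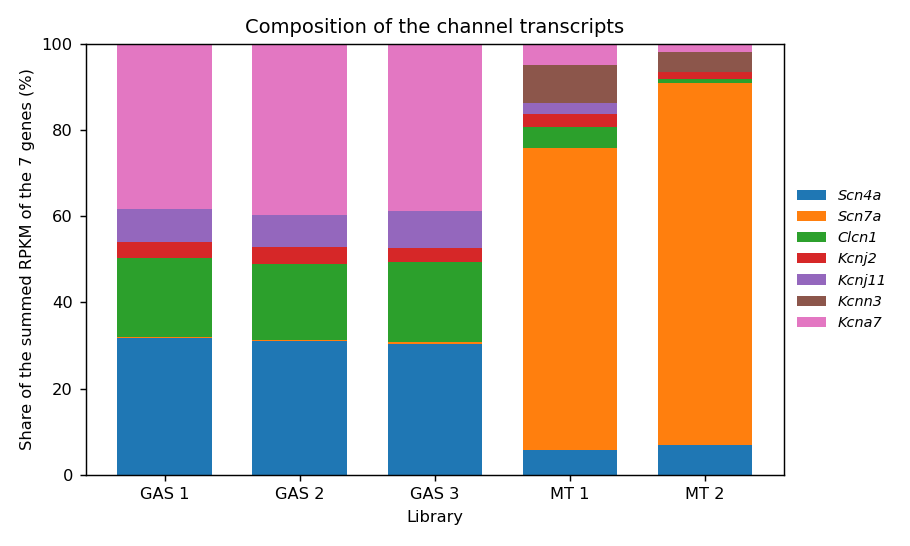
Share of each gene in the summed RPKM of the 7 genes, in percent, for each GAS and MT library, as stacked bars coloured by gene. Scn7a fills 70.2% and 84.0% of the MT bars, while Kcna7, Scn4a and Clcn1 fill most of the GAS bars.

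Ratios within a library do not depend on how libraries are scaled. Scn4a exceeded Scn7a per kb of exon by 90.9-fold, 105-fold and 72.3-fold in the 3 GAS libraries, while Scn7a exceeded Scn4a by 12.1-fold in MT 1 and 12.3-fold in MT 2. The ratio in MT describes a level that Scn7a was selected on. It was nearly equal in both MT libraries, although the levels of both genes there differed. Among potassium channels, Kcna7 exceeded Kcnn3 by 1522-fold to 9340-fold in GAS, where Kcnn3 rested on 2 to 12 counts, and Kcnn3 exceeded Kcna7 by 1.85-fold and 2.48-fold in MT. Scn4a over Clcn1, the sodium against the chloride channel of the fiber, was 1.74, 1.76 and 1.64 in GAS but 1.22 in MT 1 and 6.55 in MT 2. In MT 2, Clcn1 had only 14 counts.

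The 250 bases before the annotated start were read for the 6 members with an entry in RefSeq's table for GRCm38.p6, since muscle genes are known to be bound by myogenic factors at E-boxes and by MEF2 factors at an A/T-rich site. Windows of 3 genes are shown, with matches in capitals: Clcn1, with the motifs most often named for muscle promoters, and Scn7a and Kcnn3, the genes that were higher in MT than in GAS. Their positions are chr6:42286435-42286684 on the plus strand for Clcn1, chr2:66784911-66785160 on the minus strand for Scn7a and chr3:89519914-89520163 on the plus strand for Kcnn3, and all are written 5′ to 3′.
Clcn1: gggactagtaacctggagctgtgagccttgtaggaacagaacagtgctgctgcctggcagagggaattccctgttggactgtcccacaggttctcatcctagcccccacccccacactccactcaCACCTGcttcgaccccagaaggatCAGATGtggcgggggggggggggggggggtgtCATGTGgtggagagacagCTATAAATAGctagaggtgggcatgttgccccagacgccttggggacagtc
Scn7a: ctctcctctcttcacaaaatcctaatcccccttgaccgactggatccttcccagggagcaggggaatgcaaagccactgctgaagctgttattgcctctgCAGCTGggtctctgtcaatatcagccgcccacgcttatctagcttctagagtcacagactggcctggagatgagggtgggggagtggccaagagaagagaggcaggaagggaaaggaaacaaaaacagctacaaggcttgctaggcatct
Kcnn3: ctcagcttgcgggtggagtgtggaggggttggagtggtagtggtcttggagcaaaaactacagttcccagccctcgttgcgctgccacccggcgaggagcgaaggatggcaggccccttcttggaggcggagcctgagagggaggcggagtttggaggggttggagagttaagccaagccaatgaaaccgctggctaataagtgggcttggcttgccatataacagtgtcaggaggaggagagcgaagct
The Clcn1 window held 3 E-boxes (CANNTG) at -125, -101 and -69 from the start, and a match to the MEF2 consensus at -51 that overlaps a TATAAA at -50. The Scn7a window held 1 E-box, of the form CAGCTG, at -150, and the Kcnn3 and Scn4a windows held none. Kcnj2 had E-boxes at -206 (CAGCTG) and -84, and Kcna7 had E-boxes at -247, -231 and -85. The RefSeq starts of Scn4a and Kcna7 lie inside the gene spans given above. Their windows, chr11:106349391-106349640 and chr7:45405710-45405959, therefore lie inside those spans too. Over all 32851 windows of the table, 66.2% held CANNTG, 13.0% CAGCTG, 2.92% the MEF2 consensus and 12.4% TATAAA, with both strands searched. An E-box is therefore common, and these matches describe letters and not binding.

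The other channel and pump genes were read from lists of 79 genes chosen by function. Of these, 36 were tested between MT and MB, 13 were called higher in MT and 0 lower, beside 11.0% and 6.86% of all genes tested. The median log2FC of the 36 was 1.64, against 0.07 over all genes tested. Of the 13, 9 had at most 3 counts over both MB libraries, as had each member but Clcn1. Such a gene could pass the filter on low counts only through MT. The count of 13 and the median of 1.64 therefore describe these genes and support nothing further. Without the filter on low counts, 7 of the 79 were called higher, 6 of them among the 13, and 1 was called lower. The latter, Scn9a, was named after its values were seen: it was at 17.3 and 87.6 CPM in MB and at 16.7 and 1.27 CPM in MT, with an adjusted p of 9.39e-05 without the filter and 0.125 with it (edgeR quasi-likelihood test).

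Among 8 further sodium channel alpha subunits, 5 were tested and 3 were called higher in MT: Scn2a, Scn3a and Scn10a, known mainly from neurons, at 6.25, 7.09 and 6.80 CPM on average. In GAS, where Scn4a was abundant, each of these was at most 1.22 CPM. Of 4 beta subunits, the accessory proteins of these channels, 2 were tested and 0 called. Scn4b was at 565 ± 8.80 CPM in GAS (SD, n = 3), while in MT it was at 1.04 and 0 CPM and was not tested.

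The CLC family apart from Clcn1 had another pattern. Of 8 genes, 6 were tested and 0 called. Clcn3, Clcn4, Clcn5, Clcn6 and Clcn7, which serve mostly in endosomes and lysosomes, were at 21.7 to 65.4 CPM on average in MB and 28.3 to 95.7 CPM in MT, so they were present in MB, where Clcn1 had 5 counts. In GAS they were at 2.79 to 74.8 CPM.

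Of 13 further inward rectifiers, 1 was tested and 0 called. That gene was Kcnj12, which encodes a rectifier closely related to Kir2.1 and was at 41.3 ± 2.00 CPM in GAS (SD, n = 3) and at 2.90 and 1.78 CPM in MT (adjusted p = 0.202, edgeR quasi-likelihood test). Both sulfonylurea receptor genes, whose proteins surround the Kir6.2 pore, were called higher in MT, and Abcc9 also without the filter on low counts. Abcc9 was at 7.89 and 11.3 CPM in MT and 335 ± 34.6 CPM in GAS (SD, n = 3), and Abcc8 at 4.77 and 3.56 CPM in MT and 6.30 ± 1.71 CPM in GAS (SD, n = 3). MT 2 thus held reads of both receptors and none of Kcnj11.

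Of 7 further calcium-activated potassium channel genes, 1 was tested and 0 called. Kcnn4, the intermediate-conductance channel, was at 54.3 ± 10.1 CPM in MB and 31.4 ± 0.918 CPM in MT (SD, n = 2; adjusted p = 0.251, edgeR quasi-likelihood test) and at 0.458 CPM in GAS. Unlike Kcnn3, it was thus present in MB. Kcnn1 and Kcnma1 had 23.3 and 25.0 CPM in GAS and at most 4.39 CPM in MT. Of 17 voltage-gated genes, 5 were tested and 4 called higher in MT, among them Kcnc4, Kcnh2 and Kcnq1, at 1.47 to 5.25 CPM on average, but 0 without the filter on low counts. In GAS, Kcnc4 and Kcnc1 reached 90.0 and 62.5 CPM, and Kcnq5 had 17.8 CPM. Of 5 accessory subunits, 3 were tested and 0 called, Kcnab1 being at 20.5 CPM in MT 1 and 1.78 CPM in MT 2. Of 6 two-pore channels, 3 were tested and 1, Kcnk13, was called higher, at 6.12 ± 0.337 CPM in MT (SD, n = 2).

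Of 9 sodium-potassium pump genes, whose protein restores the gradients that the channels use, 8 were tested and 3 called higher in MT, among them Fxyd1. Fxyd1, a regulator of the pump, had the order seen for Scn4a, with 0.121 CPM in MB, 8.68 in MT and 197 in GAS on average. Atp1b1, Atp1b3 and Fxyd5 were at 15.6 to 173 CPM on average in MB, where the members were absent or nearly so, and were not called. Of these, Atp1b1 was at 45.3 CPM on average in MT (adjusted p = 0.0561, edgeR quasi-likelihood test). Without the filter on low counts it was called higher (adjusted p = 0.0411, same test). Atp1b2 was at 321 ± 13.8 CPM in GAS (SD, n = 3) and 3.69 CPM on average in MT (adjusted p = 0.0840, edgeR quasi-likelihood test).

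**Figure D4:**
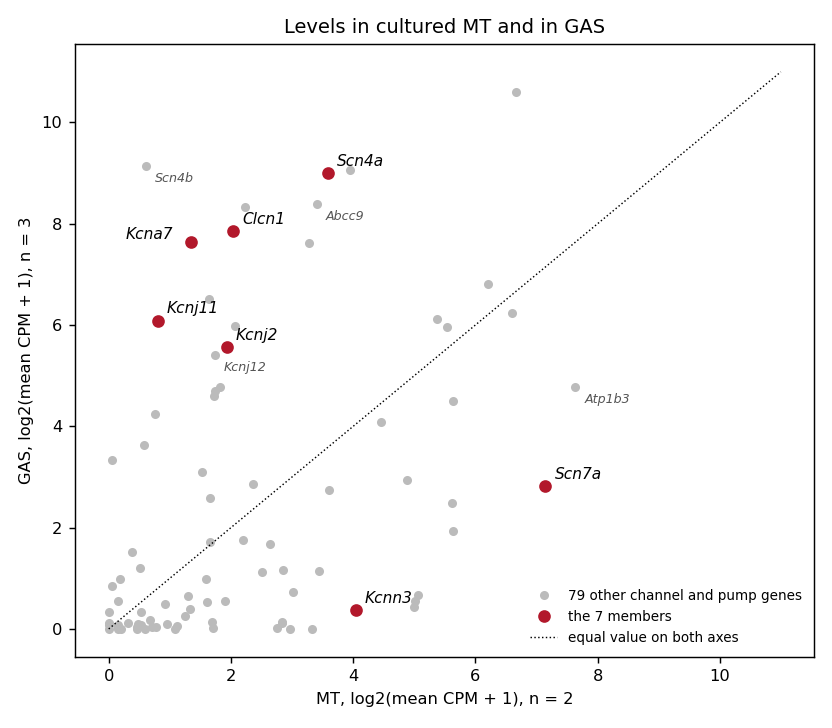
Level of the 7 members and of 79 other channel and pump genes in MT (horizontal axis, mean of 2 libraries) and in GAS (vertical axis, mean of 3 libraries), both as log2(CPM + 1), with a dotted line of equal values and some genes named. Members above the line are Scn4a, Clcn1, Kcna7, Kcnj11 and Kcnj2, Scn7a and Kcnn3 lie below it, and the libraries of each axis were scaled separately.

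The genes whose profile was nearest to that of each member were sought among 12396 protein-coding genes, by the root mean square difference of centred log2(CPM + 1) over the 9 libraries, which span 2 library protocols. For Scn4a they were Abcc9, at a difference of 0.33, and Hfe2, at 0.36. For Scn7a the nearest were Ms4a4d (0.42) and Ablim3 (0.49), which were at 89.4 and 183 CPM in MT and at 4.26 and 15.0 CPM in GAS on average. For Clcn1 they were Epm2a (0.26) and Abcb4 (0.32), and for Kcna7 they were Abcb4 (0.32) and Atp1b2 (0.34), so 1 gene was near both. For Kcnj2 they were Sh3rf2 (0.16) and Myh14 (0.18), and for Kcnj11 Ces1d (0.12) and Ppp1r1a (0.16). Kcnn3 was nearest to Chst13 (0.19) and Smim5 (0.24), which were at 12.3 and 17.2 CPM in MT and at 0.0342 and 0.255 CPM in GAS on average. Both genes named for Scn7a and both named for Kcnn3 were higher in MT than in GAS, which follows from picking them by likeness to those members.

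Little of the members' sequence was shared with other genes. Of the 50-base stretches of the longest transcript, 5 of 6549 in Scn4a (0.0763%) were shared with 1 other gene, and 7 of 5395 in Kcnj2 (0.130%) were shared with 189 genes. Scn7a, Clcn1, Kcnj11, Kcnn3 and Kcna7 shared none. Apart from Clcn1, no member overlapped another annotated gene.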

How the data were processed

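RNA-seq libraries of GAS (n = 3), MT, MB and lactate-treated MB (n = 2 each) were used. The authors deposited whole-number counts of reads per Ensembl gene and library. The submitters' processing notes name FastQC, Trim Galore 0.6.6, HISAT2 2.2.1 with mm10, and featureCounts' package Subread 2.0.1. The annotation release and the handling of strand and of multiply mapped reads are not given in the sources used here. Groups and replicate numbers came from the labels, which call the replicates biological without naming animals or cultures.

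MT against MB and lactate-treated against control MB were each tested on the deposited counts with edgeR 4.0.16 in R 4.3.3 (TMM, filterByExpr, quasi-likelihood test, prior count of 2, no block). Adjusted p-values are Benjamini-Hochberg over all genes tested, and a call needed an adjusted p below 0.05 and a log2FC beyond 0.5. The study's rule for lactate, an unadjusted p below 0.01 with the same log2FC, was also applied. It gave 0 genes without a block, and 7 higher and 6 lower with the replicate block. The study itself reports a small group of genes passing this rule in both directions, and it does not state its design. The SE of a log2FC is its size divided by the square root of F. Alternatives were DESeq2 1.42.0, other scalings, tests, filters and lengths, a block, and leaving out each replicate. The steps were tested on simulated counts.

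CPM used TMM, and RPKM the exon length in GENCODE M21 on GRCm38. A fold against a group without counts used the mean of MT over the largest MB floor, the CPM of 3 counts per library. Other ratios have exact conditional 95% intervals, which cover counting error only, since reads carried no molecular identifiers. Gene symbols, coordinates and lengths came from GENCODE M21, and 250-base windows from RefSeq (GRCm38.p6). The members and lists were chosen with earlier results of these data known. Named were all 7 members, listed genes called or with a mean over 10 CPM in GAS or MT (some are not reported here by name), and the 2 genes nearest to each member among genes with a mean of at least 1 CPM. Marker lists covered myoblasts, differentiated muscle, adult fibers, Schwann cells, neurons, fibroblasts, endothelium, smooth muscle and pericytes, macrophages and adipocytes. No replicates agreed within sampling noise.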

Additional observations from a re-analysis of the deposited data

How the results depend on the processing

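In MT against MB, 1425 genes were called higher and 887 lower. With at least 10 counts in every library, 766 were called higher and no member was tested. With a likelihood ratio test, 1343 were called lower. Leaving out 1 library at a time gave 962 (without MT 1) to 4118 (without MT 2) higher and 270 (without MT 1) to 1570 (without MB 2) lower, and DESeq2 gave 1729 and 1292. Members called other than Scn7a numbered 4, against 2 without the filter on low counts and 2 to 4 with 1 library left out. Of the 4 as reported, 2 were called without MB 1 or without MB 2, and 3 without MT 1 or without MT 2, where Clcn1 was called as well. Of the 13 other channel and pump genes called higher, 6 were called without the filter. The causes were not tested, though a single MB library leaves the fit fewer samples. In lactate-treated against control MB, 0 genes were called higher, and 0 to 2 with 1 library left out, the 2 without MB 1. With RLE scaling, DESeq2 or without ribosomal RNA genes (the last chosen after seeing the data), 4 members were called. CPM without TMM put Kcnj2 in MT at 3.15 and Kcnn3 at 17.4.

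With the replicate block, 1447 genes were called higher and 824 lower, and the same number of members, 4. Samples with the same number deviated from their group means with a correlation of -0.132 over 12921 genes in MT and MB. In lactate-treated and control MB it was 0.705 over 11804 genes, so same-numbered libraries deviated alike there. Each comparison had 2 pairs. What same-numbered libraries share is not given in the labels, and the reported fits leave this pairing out. In the lactate comparison the block gave 0 called genes, with 166 at an unadjusted p below 0.05, and 7 higher and 6 lower by the unadjusted rule. Crossing the pairs of MT and MB, an alternative chosen after seeing the data, gave 1192 higher, 867 lower and 3 members.

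Depth limits what can be said of MB: with 3 counts worth 0.362 to 0.368 CPM in control MB, lower levels of the 5 members without a count could not be seen. With 2 libraries per cultured group, 1 library can decide a value, as MT 1 did for Kcnj11.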
